A study of Mus musculus with 16 samples.

Results

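The 33 genes described here make fatty acids and build them into the lipids of sebum and skin. They were chosen by symbol from the 45777 genes of the deposited table, and all 33 were found. The list covers the supply of acetyl-CoA and NADPH, the fatty acid chain, its elongation and desaturation, triglyceride, wax and sterol ester formation, lipid droplets and regulators. RNA sequencing of polyA RNA was done on ear skin of C57BL/6 mice, titled WT (wild type) in both groups. The anti-OSM group (3 libraries) and the anti-Ly6G group (3 libraries) both received MC903 (calcipotriol, a vitamin D analogue that gives inflammation resembling atopic dermatitis) at 50 µM in 20 µL of ethanol on both ears daily for 10 days. In the anti-OSM group an antibody against the cytokine oncostatin M was given intradermally, 20 µg to each mouse on alternate days. In the anti-Ly6G group an antibody against the neutrophil surface protein Ly6G was given by the intraperitoneal route, 200 µg to each mouse, 2 days ahead of MC903 and again 1 and 4 days after it. The antibodies thus differed in route and schedule as well; these differences coincide and cannot be told apart, and the labels name no isotype antibody for these mice, no age and no day of collection. The other 10 libraries of the series, from control and MC903 ears with no antibody in their labels, were not analysed here, so which of the antibody groups moved cannot be told.

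Fatty acids are made in the cytosol from acetyl-CoA. Acetyl-CoA carboxylase turns it into malonyl-CoA, and fatty acid synthase joins malonyl units into palmitate, which elongases and desaturases then reshape. In skin the sebaceous gland is the main lipid-making organ: its cells fill with triglycerides, wax esters and sterol esters and burst to release sebum, and the transcription factors SREBP-1 and PPARγ are known regulators of these genes. Epidermal keratinocytes, dermal adipocytes and other cells also express many of them.

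Fasn and Acaca, the enzymes that build the fatty acid chain, and Thrsp, a regulator, were lower with anti-OSM than with anti-Ly6G. In edgeR's quasi-likelihood test with Benjamini-Hochberg adjustment over all genes tested, 7 of the 33 genes were lower, 1 was higher and 25 did not pass. The background was 6.27% of 19915 tested genes lower and 5.81% higher. Fasn, Acaca and Thrsp, which encode fatty acid synthase, acetyl-CoA carboxylase and a nuclear protein tied to lipogenesis, were lower by 44.3%, 39.6% and 38.3%. Acly, Dgat1, Scd2 and Soat1 were the other genes called lower, and Acsbg1, an acyl-CoA synthetase gene, was the single gene called higher. The median log2 fold change, anti-OSM over anti-Ly6G, was -0.42 over the 33 genes and 0.01 over all tested genes. A value below 0 was seen in 28 of the 33, against 9745 of the 19915 tested genes. Without anti-OSM replicate 3 it was seen in 25 of the 33. In 15 of the 33 genes every anti-OSM library lay below every anti-Ly6G library, which held for 17.3% of all tested genes, and in 1 gene every anti-OSM library lay above, which held for 17.7%. Fewer cells of a type and less RNA per cell cannot be told apart in these bulk samples.

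**Figure D1:**
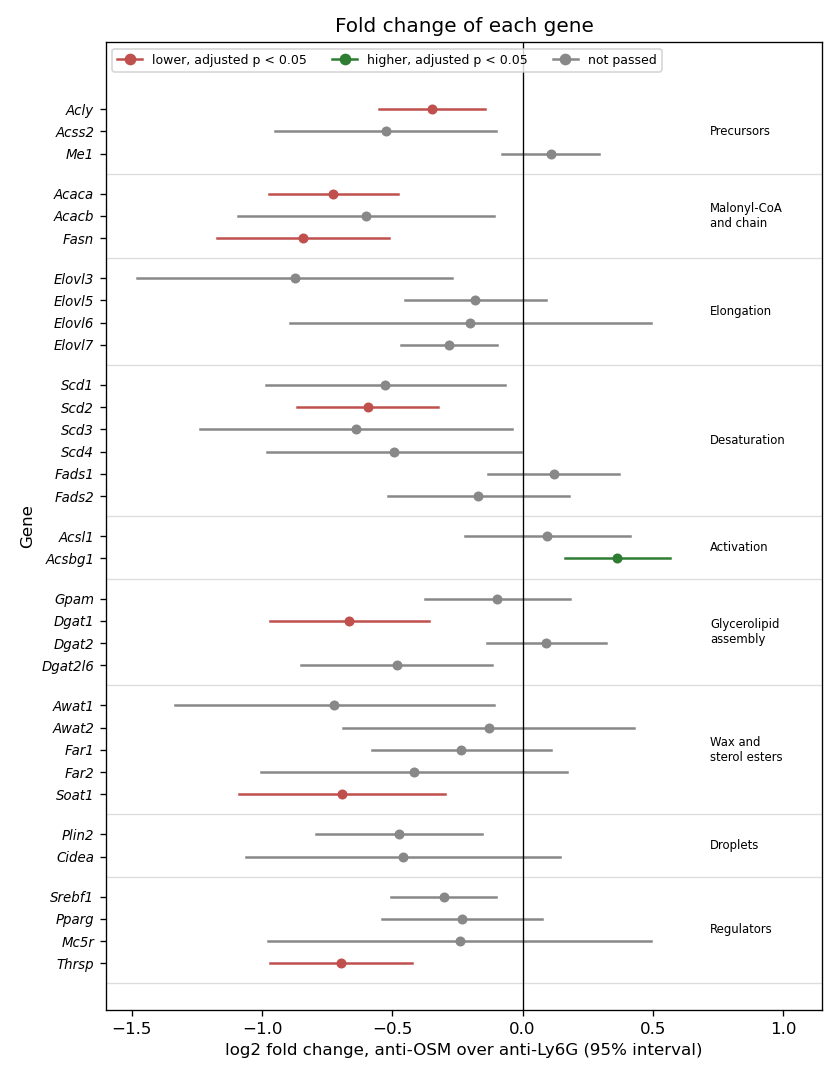
Log2 fold change of each gene, anti-OSM over anti-Ly6G, with its 95% interval, in 9 blocks by role, with both kinds of desaturase in 1 block. Red points are lower and the green point is higher at an adjusted p under 0.05; 25 of the 33 genes are grey because they did not pass. Most points lie left of 0, and 18 of the 33 genes have intervals wholly below 0, of which 7 are called lower. Such an interval corresponds to an unadjusted p under 0.05 in edgeR, at which 14.4% of all tested genes were lower. The 18 include Acaca, Acacb and Fasn in the chain block and Srebf1 and Thrsp in the regulator block.

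Total counts were 52163179 to 59063578 in the anti-OSM libraries and 59381146 to 64122588 in the anti-Ly6G libraries, so a floor of 3 counts is 0.0468 to 0.0575 CPM. All 33 genes passed the filter on low counts, and 32 averaged at least 1 CPM. Ear skin as labelled was borne out by epidermal keratins, with Krt10 at a mean of 9060 CPM with anti-OSM and 8784 CPM with anti-Ly6G, and markers of skeletal muscle and adipocytes were present too. Anti-OSM replicate 3 stood apart for the lipid genes: it had the lowest CPM of the 3 anti-OSM libraries in 25 of the 33 genes, against 32.5% of all tested genes, and anti-OSM replicate 1 the highest in 25, against 35.4% of all tested genes. The anti-Ly6G libraries were uneven too. Replicate 2 had the highest CPM of the 3 in 20 of the 33 genes, against 34.7% of all tested genes. Replicate 1 had the lowest in 18, against 32.7% of all tested genes. Calls that single libraries changed are therefore given with and without them. Some genes that did not pass moved too without anti-OSM replicate 3. The log2 fold change went from -0.53 to -0.33 for Scd1, from -0.42 to -0.17 for Far2 and from -0.46 to -0.21 for Cidea. It went from -0.20 to 0.04 for Elovl6, from -0.24 to 0.01 for Mc5r and from -0.13 to 0.09 for Awat2. Scd4 went the other way, from -0.49 to -0.65.

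RefSeq promoter windows, 250 bases before to 50 after a start in GRCm38.p6 (the assembly that mm10 names), were found for 25 of the 33 genes in 33 windows. NF-Y, a factor that binds the letters CCAAT, is known to act beside SREBP at lipid synthesis promoters. Shown are Acaca, Thrsp and Fasn, the called genes with the smallest p, and Acsbg1, the single gene called higher, added after its values were seen. Each is written on the strand of its gene, and capitals mark CCAAT on the written strand or ATTGG, its reverse complement.
Acaca, chr11:84195188-84195487, plus strand: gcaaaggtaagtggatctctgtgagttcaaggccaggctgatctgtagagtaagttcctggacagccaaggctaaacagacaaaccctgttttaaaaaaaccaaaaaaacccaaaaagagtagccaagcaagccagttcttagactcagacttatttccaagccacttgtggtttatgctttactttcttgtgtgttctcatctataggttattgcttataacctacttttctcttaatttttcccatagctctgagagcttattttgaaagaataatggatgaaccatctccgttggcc
Fasn, chr11:120824498-120824797, minus strand: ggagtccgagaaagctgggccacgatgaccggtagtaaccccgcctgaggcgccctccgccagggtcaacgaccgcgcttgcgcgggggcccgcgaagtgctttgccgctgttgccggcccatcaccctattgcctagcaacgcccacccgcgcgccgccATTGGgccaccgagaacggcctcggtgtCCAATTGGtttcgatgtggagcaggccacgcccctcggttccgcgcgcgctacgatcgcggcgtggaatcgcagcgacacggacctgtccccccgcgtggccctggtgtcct
Thrsp, chr7:97417501-97417800, minus strand: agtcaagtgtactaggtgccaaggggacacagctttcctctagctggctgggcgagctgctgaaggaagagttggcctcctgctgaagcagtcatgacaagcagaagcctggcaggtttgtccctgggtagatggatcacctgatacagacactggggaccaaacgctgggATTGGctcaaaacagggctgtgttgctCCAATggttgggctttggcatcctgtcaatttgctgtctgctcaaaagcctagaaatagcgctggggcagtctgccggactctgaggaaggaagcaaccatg
Acsbg1, chr9:54661836-54662135, minus strand: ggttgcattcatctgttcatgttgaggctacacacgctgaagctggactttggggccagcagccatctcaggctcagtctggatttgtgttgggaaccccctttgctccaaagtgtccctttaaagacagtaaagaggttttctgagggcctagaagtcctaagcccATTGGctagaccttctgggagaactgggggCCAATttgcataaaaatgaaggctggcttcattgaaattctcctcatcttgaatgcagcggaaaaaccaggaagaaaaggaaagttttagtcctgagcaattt
In the Fasn window the letters begin 90, 62 and 59 bases before the start, and the matches at 62 and 59 overlap as CCAATTGG. The Acaca window holds none of the 4 motifs searched. The Acaca and Fasn starts used lie inside the annotated extents of these genes, so other starts are not covered. Thrsp has matches 79 and 52 bases before the start and Acsbg1 83 and 53. CCAAT on either strand was in 20 of the 33 windows, from 17 of the 25 genes (60.6% of windows), against 37.4% of all 32817 windows of that length. GGGCGG, a GC box, was in 48.5% against 35.6%, the E-box CACGTG in 6.06% against 7.15%, and TCACNCCAC, a sterol response element, in 3.03% (1 window, of Acsl1) against 1.24%, each counted on both strands. These shares and places are descriptions, and their relation to the fold changes was not tested.

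Precursor genes differed in part. Acly, which encodes ATP citrate lyase, the enzyme that releases acetyl-CoA from citrate, had 264, 236 and 229 CPM with anti-OSM and 288, 341 and 300 CPM with anti-Ly6G. The groups did not overlap, and the log2 fold change was -0.35 (SE 0.09, adjusted p = 0.0399). It failed when any library except anti-Ly6G replicate 3 was dropped (adjusted p 0.0559 to 0.142 in the edgeR fits) and without scaling factors (0.0509). Acss2, which makes acetyl-CoA from acetate, had 48.2, 37.9 and 28.8 CPM with anti-OSM and 52.8, 62.6 and 49.96 CPM with anti-Ly6G, again with no overlap, and did not pass (-0.53, 95% interval -0.95 to -0.10, adjusted p = 0.104). With anti-OSM replicate 1 dropped its adjusted p was 0.0492. Me1, the malic enzyme that supplies NADPH, had 201, 207 and 203 CPM with anti-OSM and 171, 187 and 209 CPM with anti-Ly6G. Those ranges overlapped, and its log2 fold change was 0.11 (-0.08 to 0.29, adjusted p = 0.421). Of its 50-base words 24.6% also occur in transcripts of other genes on the same strand, mostly Gm7049. A further overlap is on the opposite strand, where 18.5% occur in Gm48795, so the Me1 count is uncertain. Gm7049 held 52 to 67 reads, or 0.424% to 0.620% of the Me1 counts over the 6 libraries. It was not called in edgeR (-0.03, adjusted p = 0.934).

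Of the 3 genes of malonyl-CoA and chain synthesis, Fasn and Acaca were lower with anti-OSM and Acacb did not pass. Fasn (gene ID 14104, chromosome 11, 120805958 to 120825166, GRCm38) had 261, 240 and 185 CPM with anti-OSM and 361, 473 and 398 CPM with anti-Ly6G. Every anti-OSM library was below every anti-Ly6G library, and the means were 229 ± 39.1 CPM with anti-OSM and 411 ± 56.97 CPM with anti-Ly6G (SD, n = 3 each). Its log2 fold change was -0.84 (SE 0.14, adjusted p = 0.0128, edgeR). Acaca (gene ID 107476, chromosome 11, 84129635 to 84401651), the carboxylase of lipid-making tissue, had 99.1, 98.1 and 87.5 CPM with anti-OSM and 140, 184 and 147 CPM with anti-Ly6G. The anti-OSM libraries were close together at 94.9 ± 6.44 CPM, against 157 ± 23.7 CPM with anti-Ly6G (SD, n = 3 each), and the log2 fold change was -0.73 (SE 0.11, adjusted p = 0.00823). Thrsp (gene ID 21835, chromosome 7, 97412933 to 97417550), a regulator known as Spot 14, is a far less abundant transcript. It had 5.16, 5.497 and 4.56 CPM with anti-OSM and 7.53, 8.78 and 8.37 CPM with anti-Ly6G, with no overlap, and the log2 fold change was -0.70 (SE 0.12, adjusted p = 0.0119). These 3 genes were the only ones of the 33 called in each of the 6 fits that left out 1 library and in each of the 13 alternatives run, with adjusted p up to 0.0433 for Fasn, 0.0383 for Acaca and 0.0494 for Thrsp when 1 library was left out.

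Acacb, the second acetyl-CoA carboxylase gene, whose product sits at mitochondria and restrains fatty acid oxidation, had 87.7, 80.7 and 51.2 CPM with anti-OSM and 93.8, 128 and 112 CPM with anti-Ly6G. Its groups did not overlap but it did not pass (-0.60, -1.09 to -0.11, adjusted p = 0.109). Counting of Acaca is uncertain in 1 respect: 49.1% of the 50-base words of its coding transcripts (GENCODE M21) also occur in the pseudogene Gm5182. That pseudogene held 244 to 278 reads with anti-OSM and 411 to 476 reads with anti-Ly6G, or 4.39% to 5.29% of the Acaca counts over the 6 libraries, and it too was called lower (-0.64, adjusted p = 0.0209).

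**Figure D2:**
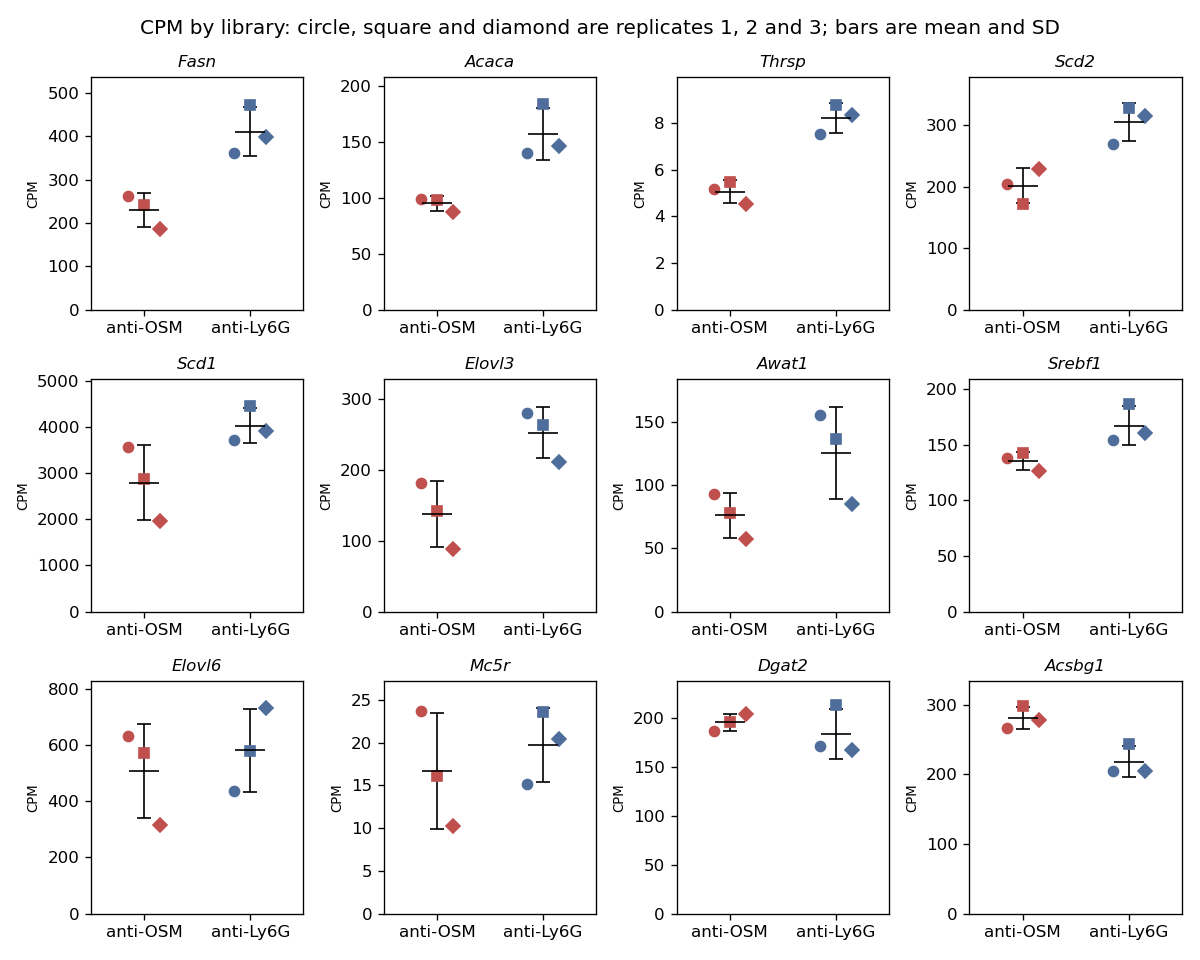
CPM of 12 of the genes in each library, anti-OSM on the left and anti-Ly6G on the right of each panel, with axes from 0. Circles, squares and diamonds are replicates 1, 2 and 3, and bars give the mean and SD (n = 3). Fasn, Acaca, Thrsp and Scd2 show a gap between groups, Elovl6, Mc5r and Dgat2 overlap, and Acsbg1 lies higher with anti-OSM.

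Of the 4 elongase genes 0 passed in edgeR. At an unadjusted p under 0.05 in edgeR 2 were lower, against 14.4% of all tested genes. DESeq2 called 2 lower, against 10.1% of the genes with an adjusted p, and limma-voom called 0. Elovl3, an elongase of sebaceous gland and brown fat, had 182, 142 and 88.7 CPM with anti-OSM and 281, 264 and 212 CPM with anti-Ly6G. The groups were apart and the log2 fold change was the lowest of the 33 genes, but the spread among the anti-OSM libraries was wide (-0.88, -1.48 to -0.27, adjusted p = 0.0732). Dropping anti-OSM replicate 1 gave -1.13 (adjusted p = 0.0486), and dropping anti-OSM replicate 3 gave -0.64 (0.0680). Elovl7, which elongates saturated chains, had 207, 194 and 196 CPM with anti-OSM and 249, 260 and 217 CPM with anti-Ly6G. Those libraries did not overlap either, with a smaller fold change of -0.28 (-0.47 to -0.10, adjusted p = 0.0565), and it passed without anti-Ly6G replicate 3 (adjusted p = 0.0154). Elovl6, which lengthens palmitate to stearate, ranged from 315 to 630 CPM with anti-OSM and from 435 to 730 CPM with anti-Ly6G and had -0.20 (-0.89 to 0.49). Elovl5, an elongase of polyunsaturated chains, had -0.18 (-0.45 to 0.09). Both overlapped between groups.

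Of the stearoyl-CoA desaturase genes, which put the first double bond into saturated chains, Scd2 passed and the others did not. Scd2 (gene ID 20250, chromosome 19, 44293676 to 44306864) had 205, 171 and 229 CPM with anti-OSM and 269, 328 and 315 CPM with anti-Ly6G. All anti-OSM values were below the lowest anti-Ly6G value, and the log2 fold change was -0.59 (SE 0.12, adjusted p = 0.0189). Its adjusted p was 0.0672 with anti-OSM replicate 1 dropped, 0.0535 with anti-OSM replicate 2 dropped and 0.0625 with anti-Ly6G replicate 2 dropped, so the call needed each of them. Scd1, the paralog that predominates in mouse sebaceous glands, was the most abundant of the 33 genes, at 3570, 2875 and 1962 CPM with anti-OSM and 3733, 4462 and 3913 CPM with anti-Ly6G. Its groups were separated by a narrow gap, anti-OSM replicate 3 was far below the other anti-OSM libraries, and it did not pass (-0.53, -0.99 to -0.07, adjusted p = 0.126). Within single libraries the ratio of Scd1 to Scd2, on the TPM scale, was 19.7, 18.9 and 9.66 with anti-OSM, against 15.6, 15.3 and 14.0 with anti-Ly6G, so anti-OSM replicate 3 was low in Scd1 but not in Scd2.

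Scd3 had -0.64 (-1.24 to -0.04, adjusted p = 0.149; 0.0323 without anti-OSM replicate 1) and the rare Scd4 -0.49 (-0.98 to -0.01, adjusted p = 0.167), at 4.12 and 0.485 TPM with anti-OSM and 6.49 and 0.700 TPM with anti-Ly6G. The 4 paralogs lie side by side on chromosome 19, and 4.01% to 6.54% of the 50-base words of each occur in transcripts of other genes, mostly one another, so reads in those stretches are uncertain. Fads1 and Fads2, the desaturases of polyunsaturated fatty acids, had 0.12 (-0.13 to 0.37) and -0.17 (-0.52 to 0.18) and overlapped between groups.

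Acyl-CoA synthetases activate fatty acids for use. Acsbg1 (gene ID 94180, chromosome 9, 54604886 to 54661885), which acts on long and very long chains, had 266, 298 and 278 CPM with anti-OSM and 205, 244 and 205 CPM with anti-Ly6G. It was the single gene of the 33 whose anti-OSM libraries all lay above the anti-Ly6G libraries, and the log2 fold change was 0.36 (SE 0.09, adjusted p = 0.0335). Leaving out any library except anti-Ly6G replicate 2 ended this call (adjusted p 0.0662 to 0.116 in the edgeR fits). Acsl1, the main long-chain synthetase of fat tissue, had 209, 232 and 259 CPM with anti-OSM and 199, 267 and 189 CPM with anti-Ly6G, which overlap (0.10, -0.22 to 0.41).

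The last step of triglyceride synthesis has a pair of unrelated enzymes, and their genes differed in behaviour. Dgat1 (gene ID 13350, chromosome 15, 76502012 to 76512021) had 63.1, 56.1 and 45.2 CPM with anti-OSM and 95.3, 90.0 and 75.4 CPM with anti-Ly6G. The groups did not overlap, and the log2 fold change was -0.67 (SE 0.13, adjusted p = 0.0200). Its adjusted p was 0.0620 and 0.0502 with anti-OSM replicate 2 or 3 dropped, and 0.0676 and 0.0706 with anti-Ly6G replicate 1 or 2 dropped, so 4 of the 6 such fits did not call it. Dgat2 had 187, 196 and 204 CPM with anti-OSM and 171, 213 and 167 CPM with anti-Ly6G, with overlap and a log2 fold change of 0.09 (-0.14 to 0.32). The ratio of Dgat2 to Dgat1 within a library, on the TPM scale, was 2.61, 3.08 and 3.98 with anti-OSM, against 1.58, 2.08 and 1.94 with anti-Ly6G, a ratio with no test of its own. Gpam, which starts glycerolipid synthesis at mitochondria, had -0.10 (-0.37 to 0.18). Dgat2l6, a member of the Dgat2 family on the X chromosome, had -0.48 (-0.85 to -0.12, adjusted p = 0.0887) and passed without anti-Ly6G replicate 3 (adjusted p = 0.0143).

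Soat1 (gene ID 20652, chromosome 1, 156428108 to 156474328), which joins cholesterol to fatty acids, was the 1 gene of the wax and sterol ester group to pass. It had 137, 117 and 81.9 CPM with anti-OSM and 172, 191 and 180 CPM with anti-Ly6G. The groups were apart, and the log2 fold change was -0.69 (SE 0.17, adjusted p = 0.0396). It was not called with anti-OSM replicate 2 dropped (0.100), nor with anti-Ly6G replicate 1 (0.0920), 2 (0.128) or 3 (0.0633) dropped. Awat1, a wax synthase of the sebaceous gland, had 93.5, 78.0 and 57.5 CPM with anti-OSM and 156, 137 and 85.4 CPM with anti-Ly6G. Anti-Ly6G replicate 3 fell inside the anti-OSM range, and the gene did not pass (-0.72, -1.34 to -0.11, adjusted p = 0.121); without that library it had -0.94 (adjusted p = 0.0205). Its neighbour Awat2, also a wax synthase, had 7.63, 6.16 and 3.96 CPM with anti-OSM and 5.43, 6.03 and 7.95 CPM with anti-Ly6G and overlapped (-0.13, -0.69 to 0.43).

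Fatty acyl-CoA reductases supply the alcohols of wax esters and ether lipids. Far1 had -0.23 (-0.58 to 0.11). Far2, the reductase of sebaceous glands, had 317, 268 and 153 CPM with anti-OSM and 299.9, 354 and 330 CPM with anti-Ly6G. Anti-OSM replicates 2 and 3 lay below every anti-Ly6G library, replicate 1 lay among them, and Far2 had -0.42 (-1.00 to 0.17, adjusted p = 0.320). Of its 5204 50-base words 783 lie on the opposite strand of other transcripts, chiefly Ergic2; whether counting used strand was not given in the sources used here, so these reads are uncertain. Ergic2 itself had 0.10 (adjusted p = 0.418).

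Neither lipid droplet gene passed in edgeR or limma-voom, and 1, Plin2, had an unadjusted p under 0.05 and was called lower by DESeq2. The shares of all genes lower were 14.4% at that unadjusted p in edgeR and 10.1% of those with an adjusted p in DESeq2. Plin2, a coat protein of lipid droplets in most cells, had 155, 134 and 109 CPM with anti-OSM and 194, 200.4 and 157 CPM with anti-Ly6G, with no overlap and a log2 difference of -0.47 (-0.79 to -0.15, adjusted p = 0.0643); without anti-Ly6G replicate 3 it passed (adjusted p = 0.0244). Cidea, which promotes droplet fusion in sebocytes and brown fat, had 66.8, 58.6 and 32.03 CPM with anti-OSM and 73.3, 78.0 and 65.1 CPM with anti-Ly6G. These ranges overlapped (-0.46, -1.06 to 0.14, adjusted p = 0.286).

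The regulator Srebf1, which encodes SREBP-1, had 138, 142 and 126 CPM with anti-OSM and 154, 187 and 160 CPM with anti-Ly6G. Its groups did not overlap, and it did not pass (-0.30, -0.50 to -0.10, adjusted p = 0.0606; adjusted p 0.0582 to 0.193 without each library). Pparg, whose product drives sebocyte and adipocyte differentiation, had 25.0, 18.8 and 17.3 CPM with anti-OSM and 22.5, 24.6 and 24.7 CPM with anti-Ly6G. Mc5r, a melanocortin receptor needed for normal sebum output in mice, had 23.8, 16.1 and 10.2 CPM with anti-OSM and 15.1, 23.6 and 20.4 CPM with anti-Ly6G. Both overlapped between groups and had -0.23 (-0.54 to 0.07) and -0.24 (-0.98 to 0.49).

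**Figure D3:**
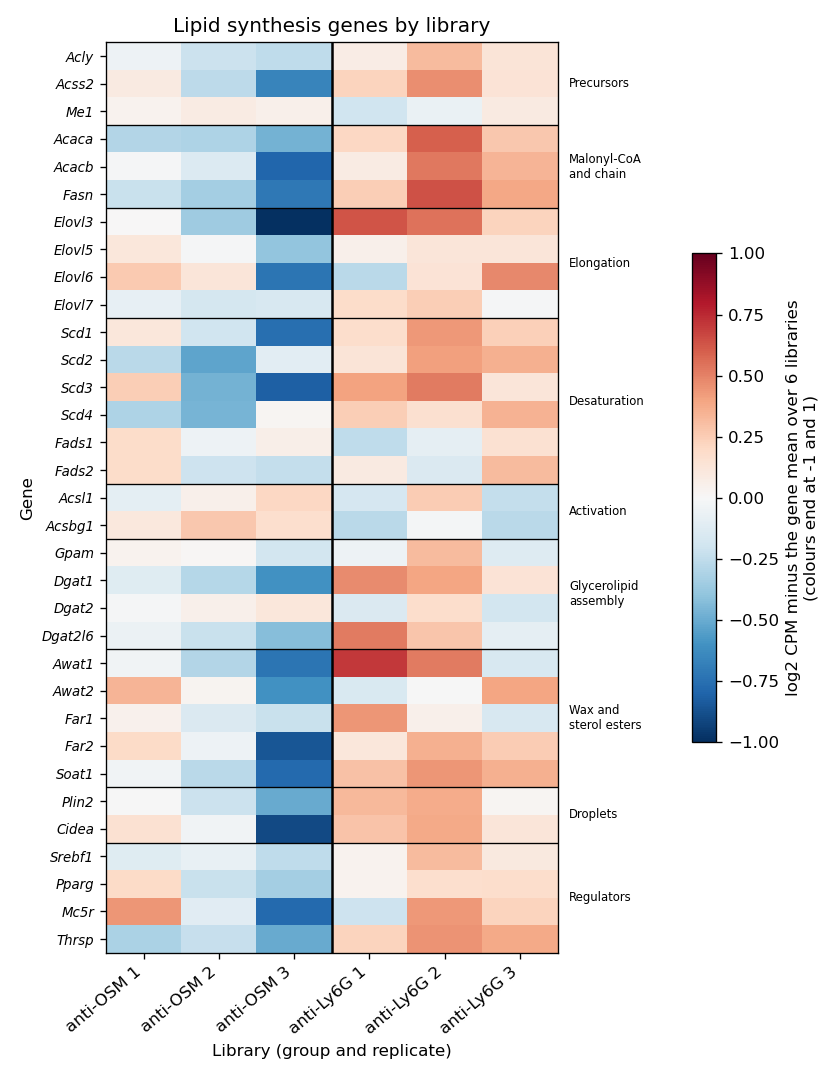
Log2 CPM of the 33 genes in each library minus the gene's mean over the 6 libraries, with anti-OSM libraries on the left and roles marked at the right. Anti-OSM replicate 3 is the bluest column, the lowest anti-OSM library in 25 of 33 genes; Acaca, Fasn and Thrsp are blue in all 3 anti-OSM libraries and red in all 3 anti-Ly6G libraries.

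Levels between genes were compared per length, in the deposited TPM. Scd1 led with 1199 ± 363 TPM with anti-OSM and 1754 ± 215 TPM with anti-Ly6G (SD, n = 3 each), and made up 29.9% to 37.3% of the summed TPM of the 33 genes with anti-OSM, against 36.1% to 38.2% with anti-Ly6G. Elovl3 had 151 ± 53.9 TPM with anti-OSM and 281 ± 36.99 TPM with anti-Ly6G. Elovl6 had 176 ± 60.2 TPM with anti-OSM and 206 ± 56.0 TPM with anti-Ly6G. With anti-OSM the means of Acsbg1 (191 ± 9.73 TPM), Dgat2 (179 ± 5.07 TPM) and Elovl6 were above that of Elovl3, and with anti-Ly6G Elovl3 stood next after Scd1; with anti-OSM these neighbours differ by less than the spread of Elovl3. Fasn (47.6 ± 8.78 TPM with anti-OSM and 86.9 ± 14.6 TPM with anti-Ly6G) ranked 19 of the 33 by mean TPM and Acaca (17.8 ± 1.41 TPM with anti-OSM and 30.4 ± 4.99 TPM with anti-Ly6G) ranked 26, so the genes with the firmest differences were not the abundant ones. Summed over the 33 genes, TPM was 4160, 3563 and 2757 with anti-OSM, against 4332, 5217 and 4479 with anti-Ly6G, with no overlap. Without Scd1 the sums were 2610, 2343 and 1931 with anti-OSM, against 2769, 3231 and 2766 with anti-Ly6G, also with no overlap.

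Most sebaceous gland and adipocyte markers did not pass. Over all tested genes, 6.27% were lower and 5.81% higher. With 1 library dropped, 2.06% to 7.14% of all tested genes were lower and 1.18% to 7.62% higher. Of 10 sebaceous gland and duct markers outside lipid synthesis, 0 were higher, 1 was lower and 9 did not pass in edgeR, with a median log2 fold change of -0.16 and no marker at 0. With anti-OSM their summed level was 628 to 805 CPM, against 933 to 1029 CPM with anti-Ly6G. Krt79, a keratin of the sebaceous duct, accounted for most of this, with 433, 455 and 319 CPM with anti-OSM and 606, 673 and 570 CPM with anti-Ly6G (-0.62, SE 0.13, adjusted p = 0.0254); dropping any library except anti-OSM replicate 2 and anti-Ly6G replicate 3 ended its call (adjusted p up to 0.0811). Without anti-Ly6G replicate 3 the list had 2 lower markers, and without anti-Ly6G replicate 2 it had 1 higher and 0 lower. Mgst1, a glutathione transferase abundant in sebocytes, had 169, 158 and 117 CPM with anti-OSM and 161, 139 and 169 CPM with anti-Ly6G, which overlap (-0.08, -0.40 to 0.24). Of 15 adipocyte markers, 0 were higher, 3 were lower and 12 did not pass, the median was -0.11, none was at 0, and summed levels overlapped at 1145 to 1312 CPM with anti-OSM and 1256 to 1394 CPM with anti-Ly6G. The adipocyte count was 1 without anti-Ly6G replicate 1 or 3 and 0 without each other library. The 3 called lower were Aqp7, Cfd and Plin4. Of the 15 adipocyte markers 12 had a log2 fold change below 0, as had 9745 of the 19915 tested genes. Adipoq, the adipocyte hormone gene, was on the other side of 0, at 0.10 (-0.11 to 0.31).

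Other tissues of the ear differed as well. The shares of all tested genes called were 6.27% lower and 5.81% higher. With 1 library dropped, these shares ranged from 2.06% to 7.14% lower and from 1.18% to 7.62% higher. Skeletal muscle markers were lower in 11 of 13, with summed levels of 3889 to 4583 CPM with anti-OSM and 6048 to 6441 CPM with anti-Ly6G, and hair follicle markers in 5 of the 9 tested, with 411 to 583 CPM with anti-OSM and 1245 to 1683 CPM with anti-Ly6G. In both lists the groups did not overlap and no marker was at 0. With 1 library dropped, the muscle count was 5 and 7 without anti-OSM replicates 1 and 2 and 9 or 10 without each other library, and the hair follicle count was 4 or 5. Anti-OSM replicate 3, the lowest of the 6 libraries for the lipid genes, was the highest of the 3 anti-OSM libraries for muscle. Of 8 epidermal keratinocyte markers 2 were lower, Itga6 and Krt14, and the median of the 8 was -0.20. The lower count was 0 without anti-OSM replicate 1 or 3, 1 without anti-OSM replicate 2, and likewise 1 without anti-Ly6G replicate 1. It was 2 without anti-Ly6G replicate 2 and 3 without anti-Ly6G replicate 3. Among 8 macrophage markers 3 were higher and 0 lower, with 2285 to 2828 CPM with anti-OSM and 1368 to 2059 CPM with anti-Ly6G; the count was 7 without anti-Ly6G replicate 3, 0 without anti-Ly6G replicate 2, 2 without anti-OSM replicate 2 and 1 without each of the other libraries. The part of any of these tissues in the lipid gene differences was not tested.

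**Figure D4:**
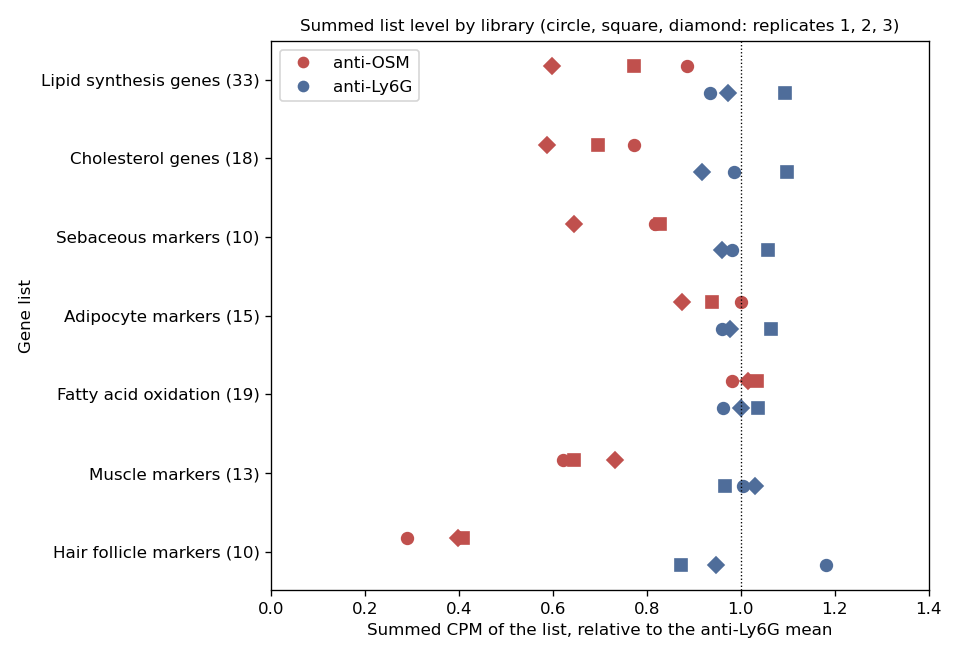
Summed CPM of 7 gene lists in each library, divided by the mean of the 3 anti-Ly6G libraries (dotted line at 1). Anti-OSM libraries are red and drawn above the blue anti-Ly6G libraries; circles, squares and diamonds are replicates 1, 2 and 3. The 33 lipid genes lie at 0.597 to 0.885 with anti-OSM, against 0.933 to 1.09 with anti-Ly6G, while fatty acid oxidation genes lie at 0.981 to 1.04 with anti-OSM, against 0.963 to 1.04 with anti-Ly6G.

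Genes next to the 33 in the pathway were read from other lists in the same fit. For these lists too the background was 6.27% of tested genes lower and 5.81% higher. Among 16 other lipogenic regulators and precursor genes, 4 were lower, 1 was higher and 11 did not pass; without anti-OSM replicate 2 or 3 the lower count was 2, and without anti-OSM replicate 3 the higher count was 0. Mlxipl, which encodes the glucose-sensing factor ChREBP, had 7.29, 6.92 and 6.92 CPM with anti-OSM and 11.9, 11.7 and 10.04 CPM with anti-Ly6G (-0.67, SE 0.10, adjusted p = 0.00901). Prkaa2, a catalytic subunit of the AMP-activated kinase, had -0.49 (adjusted p = 0.00979), and both kept their calls without each library. Insig1, which holds SREBP precursors in the endoplasmic reticulum, had -0.32 (adjusted p = 0.0198) and was not called with anti-OSM replicate 2 or 3 dropped (up to 0.0839). Srebf2, which encodes the SREBP of cholesterol synthesis, had -0.36 (adjusted p = 0.0250) and was called only in the fits without anti-Ly6G replicate 2 or 3 (up to 0.0974 in the other fits that left out 1 library). The single gene called higher was Acss1, the mitochondrial acetyl-CoA synthetase. It had 16.2, 16.6 and 18.6 CPM with anti-OSM and 10.9, 10.9 and 12.8 CPM with anti-Ly6G (0.57, adjusted p = 0.0134 in edgeR). Without anti-OSM replicate 3 its adjusted p was 0.0574.

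Of 12 further acyl-CoA synthetase genes 1 was lower, Acsl3 of lipid droplets and endoplasmic reticulum (-0.52, SE 0.08, adjusted p = 0.00828), which passed without each library too. Of 13 other glycerolipid enzymes 11 were tested and 1 was lower, Mogat1 (-0.84, adjusted p = 0.0275), whose call was lost without any anti-OSM library or anti-Ly6G replicate 2 (up to 0.0991). No gene passed among 9 tested elongation genes (median -0.17) or 5 ether lipid genes (median -0.13) in edgeR or limma-voom. At an unadjusted p under 0.05 in edgeR, 2 of the elongation genes and 1 of the ether lipid genes were lower, against 14.4% of all tested genes. DESeq2 called 2 and 1 lower, against 10.1% of the genes with an adjusted p. Of 14 tested droplet and lipolysis genes 2 were lower, the perilipin genes Plin4 (-0.67, adjusted p = 0.0249) and Plin5 (-0.79, adjusted p = 0.0295); both calls were lost without any library except anti-Ly6G replicate 3 (up to 0.0839 and 0.0989).

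Fatty acid oxidation, the opposite route, showed 1 higher, 1 lower and 17 genes that did not pass of 19 in edgeR, with a median log2 fold change of -0.07. Cpt1a, the carnitine palmitoyltransferase that admits fatty acids to mitochondria and is inhibited by malonyl-CoA, had 135, 169 and 174 CPM with anti-OSM and 96.4, 112 and 98.7 CPM with anti-Ly6G. The groups were apart, the log2 fold change was 0.63 (SE 0.11, adjusted p = 0.0115), and the call held without each library. Its muscle paralog Cpt1b had -0.53 (adjusted p = 0.0328), and dropping any library except the third of each group ended that call (up to 0.105). Cholesterol synthesis and uptake genes share precursors and the SREBP family with the 33 genes. They were lower in 14 of 18, with a median of -0.48, and in 6 to 14 without each library. The count was 6 without anti-OSM replicate 2 or 3, 8 without anti-Ly6G replicate 1 and 9 without anti-Ly6G replicate 2. The share of all tested genes called lower was 6.27%, and 2.06% to 7.14% with 1 library dropped.

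The count of lipid synthesis genes depended on single libraries. Beside each count stands the share of all tested genes called lower in the same edgeR fit. Without anti-OSM replicate 1, 8 of the 33 were called lower (2.06%), without replicate 2 the count was 3 (2.52%), and without replicate 3 it was 5 (2.27%). Without anti-Ly6G replicate 1 it was 4 (3.04%), without replicate 2 it was 3 (3.64%), and without replicate 3 it was 10 (7.14%). The median log2 fold change of the 33 genes was -0.28 without anti-OSM replicate 3 and -0.58 without anti-OSM replicate 1. DESeq2 called 17 lower and 1 higher, where 10.1% of the genes with an adjusted p were lower and 9.32% were higher.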

How the data were processed

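Read counts, FPKM and TPM per gene and library were deposited by the authors in 1 table, per the file headers. The read counts are whole numbers. FPKM values deposited by the authors were not used further. TPM values deposited by the authors, which sum to 1000000 per library, served to compare levels between genes. Tools listed, with no roles, in the submitters' processing notes include HISAT2 2.1.0 and StringTie 2.1.3b, and builds include mm10; strand use in counting was not given in the sources used here.

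Counts were tested with edgeR 4.0.16 in R 4.3.3: genes were kept by filterByExpr, scaled by TMM and fitted by the robust quasi-likelihood method, with 2-sided tests and Benjamini-Hochberg adjustment over all 19915 tested genes at 0.05, with 3 libraries a group and no covariate. CPM were computed on TMM-scaled totals. The test was checked on simulated data. Whether replicates are separate mice is not in the labels; p-values reflect the spread among these libraries, which may be technical. Library pairs of a group differed by a chi-square of at least 26.2 per gene, so none was counted as a duplicate. Floors cover counting error only. The genes and lists were chosen with earlier results of these data known. Each of the 33 genes is described. Up to 4 genes of each other list are named, called genes first, apart from genes added later. Some lists are given by counts only. Adipoq, Mgst1, Krt10, Gm5182, Gm7049, Ergic2 and Srebf2 were added after their values were seen. Alternatives were other scalings, no filter, DESeq2 1.42.0, limma-voom 3.58.1, a replicate block and leaving out each library.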

Additional observations from a re-analysis of the deposited data

How the results depend on the processing

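Over all genes, 1157 were called higher and 1249 lower with anti-OSM. Leaving out 1 library gave 240 to 1545 higher and 420 to 1447 lower genes. Among the 33 lipid synthesis genes, 7 were lower and 1 higher. Leaving out 1 library gave 3 to 10 lower and 0 to 1 higher. In those fits 2.06% to 7.14% of all tested genes were lower and 1.18% to 7.62% were higher. DESeq2 called 17 of the 33 lower, adding Acacb, Acss2, Awat1, Dgat2l6, Elovl3, Elovl7, Plin2, Scd1, Scd3 and Srebf1. The RLE, upper-quartile, unfiltered and limma-voom fits gave 7 lower and 1 higher, and the fit without scaling factors 6 and 1. Of all tested genes, these fits called 4% to 6.38% lower and 3.23% to 5.87% higher. No scaling moved the median of all genes beyond 0.02 on the log2 scale. Replicate numbers recur in both groups, but the labels do not say what they mark, so they were not taken as pairs. Same-numbered libraries deviated together with correlations of 0.012, 0.037 and 0.124. Anti-OSM replicates 2 and 3 correlated best with their own number and replicate 1 with anti-Ly6G replicate 2 (0.081). With 3 libraries a group these correlations cannot decide whether the numbers mark pairs. A replicate block gave 13 lower and 1 higher of the 33, where 6.4% of all tested genes were lower and 6.65% were higher. In that fit Acly was not called (adjusted p = 0.0524). It called Awat1 (0.00282), Elovl3 (0.00541), Plin2 (0.0105), Dgat2l6 (0.0155), Acss2 (0.0376), Srebf1 (0.0415) and Scd3 (0.0449) lower. Changes of call were counted over the 33 genes and 13 alternatives: 382 kept their side of the threshold, 24 gained a call and 23 lost it, and no called gene changed sign. The causes were not tested. With 3 libraries a group, intervals of log2 fold changes spanned more than 1 for Elovl3, Elovl6, Awat1, Awat2, Far2, Scd3, Cidea and Mc5r; of these, Elovl3, Awat1 and Scd3 were called lower by DESeq2 and with the block.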
